A study of Mus musculus with 14 samples.

Results

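Chemokine genes, taken as every gene whose symbol starts with Ccl or Cxcl followed by a number, made up 34 of the 26962 genes listed in the RNA-sequencing tables of mouse embryonic fibroblasts undergoing reprogramming. Of the 34 genes, 23 carried a Ccl symbol and 11 a Cxcl symbol, and 10 were listed at 0 wherever they were listed. A further 18 were above 0 in some library but below the level needed for a test, and 6 were tested: Ccl2, Ccl7, Ccl8, Cxcl1, Cxcl10 and Cxcl14. Levels are FPKM, the authors' fragment numbers scaled by exon length and library depth, so they can be set beside each other between genes.

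Chemokines are small secreted proteins that bind G-protein-coupled receptors and draw receptor-bearing cells towards their source. The CC and CXC families are named for the spacing of their first cysteines. CC members such as Ccl2 attract mainly monocytes and other mononuclear cells, and CXC members such as Cxcl1 attract neutrophils. Fibroblasts are a known source of several of them, and many chemokine genes are known to be switched on by NF-kB or by interferons.

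The 14 libraries came from OG2/129SV fibroblasts that all carried exogenous c-Myc, Klf4, Oct4 and Sox2 plus either a control vector or Cdk9-DN and that were grown in serum-containing embryonic stem cell medium with LIF. Each vector had 1 library at day 3 after infection and 2 libraries each at days 4, 5 and 10. The control vector groups and the Cdk9-DN groups differed only in that added vector, and no group without the 4 factors was used here. Nothing in the labels says that the 2 libraries of a group came from separate cultures, so the p-values measure the spread between these libraries, which may be technical. The libraries are bulk samples of mixed intermediates, in which fewer cells of a type and less RNA per cell cannot be told apart.

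Depth, estimated from the deposited FPKM bounds, lay between 8790900 and 12960000 fragments, and 4947 to 5292 genes reached 1 FPKM in each library. One library stood apart: in the control library of day 5, replicate 2, the 10 highest genes held 76.2% of all FPKM, against 33.4% to 66.1% in the other libraries. Thy1, a fibroblast surface marker, was listed at 59.5 to 83.6 FPKM at days 4 and 5 and at 16.3 to 18.0 FPKM at day 10. Some genes had no entry in some libraries, and such a library is given as not listing the gene. A listed 0 was not read as absence: Cebpb, a transcription factor gene, was listed at 0 in replicate 2 of both vectors at day 4 and at 28.1 and 24.3 FPKM in replicate 1 of the control and Cdk9-DN.

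The 4 tested members with an entry in the RefSeq promoter table (GRCm38.p6) are Ccl8, Cxcl1, Cxcl10 and Cxcl14, and the promoters of all 4 are shown. Each line gives the 250 bases before the start site, 5′ to 3′ on the gene's strand, with capitals marking the matches found. On GRCm38.p6 the windows are chr11:82114935-82115184 on the plus strand for Ccl8, chr5:90890995-90891244 on the plus strand for Cxcl1, chr5:92348890-92349139 on the minus strand for Cxcl10 and chr13:56296552-56296801 on the minus strand for Cxcl14.
Ccl8: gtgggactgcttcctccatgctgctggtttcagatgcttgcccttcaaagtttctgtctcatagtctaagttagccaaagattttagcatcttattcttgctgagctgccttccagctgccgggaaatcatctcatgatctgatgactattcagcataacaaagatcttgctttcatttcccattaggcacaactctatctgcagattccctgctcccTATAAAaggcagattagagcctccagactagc
Cxcl1: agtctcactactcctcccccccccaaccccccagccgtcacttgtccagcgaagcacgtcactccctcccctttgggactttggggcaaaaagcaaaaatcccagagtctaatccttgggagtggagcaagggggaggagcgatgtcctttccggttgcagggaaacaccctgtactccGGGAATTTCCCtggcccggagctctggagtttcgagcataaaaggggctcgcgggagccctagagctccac
Cxcl10: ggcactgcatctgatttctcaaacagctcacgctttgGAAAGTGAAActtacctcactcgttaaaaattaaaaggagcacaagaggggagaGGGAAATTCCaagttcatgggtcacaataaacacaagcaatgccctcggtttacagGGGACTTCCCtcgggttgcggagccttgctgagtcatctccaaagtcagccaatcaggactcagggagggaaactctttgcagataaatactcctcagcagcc
Cxcl14: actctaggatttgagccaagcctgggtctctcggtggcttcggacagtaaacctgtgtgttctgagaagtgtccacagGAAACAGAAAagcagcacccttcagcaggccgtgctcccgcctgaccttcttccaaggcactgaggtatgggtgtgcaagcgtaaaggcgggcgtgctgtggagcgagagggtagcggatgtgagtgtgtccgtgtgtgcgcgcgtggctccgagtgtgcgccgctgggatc

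The motifs searched on both strands of these windows were the NF-kB consensus, the TATA box TATAAA, and the core of the interferon-stimulated response element (ISRE), which is GAAA, 2 bases of any kind and GAAA. The Cxcl1 window held 2 overlapping NF-kB matches, 1 on each strand, at bases -71 to -62 and -70 to -61 before the start site. The Cxcl10 window held NF-kB matches at -159 to -150 and at -103 to -94, and an ISRE core match at -213 to -204. An ISRE core match also stood at -172 to -163 in the Cxcl14 window, and TATAAA stood at -32 to -27 in the Ccl8 window. Of 32851 RefSeq promoter windows of the same length, 3.90% held the NF-kB consensus, 12.4% held TATAAA and 2.98% held the ISRE core. These matches are letters in a window and were not tested as binding sites.

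The plot of levels by day and vector shows the 6 tested genes in every library that listed them. Ccl2, Ccl7, Cxcl14 and Cxcl1 were lower at day 10 than at day 4 in both vectors, Ccl8 was higher at day 5 than at day 4 in both vectors, and Cxcl10 was highest in the 2 control libraries of day 10.

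**Figure D1:**
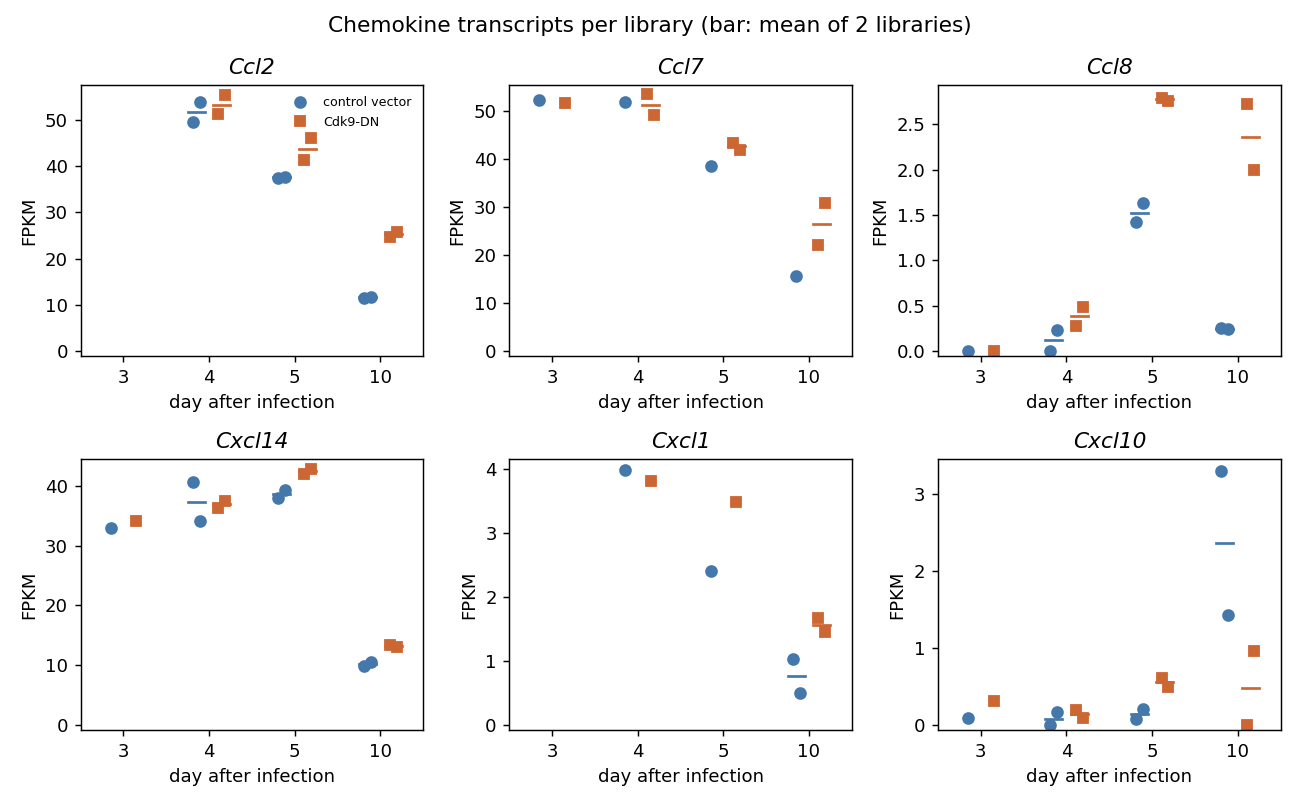
FPKM (vertical axis, linear) of the 6 tested chemokine genes by day after infection (horizontal axis, evenly spaced), with 1 point per library, blue circles for the control vector and orange squares for Cdk9-DN; bars are means of 2 libraries, and a missing point is a library that does not list the gene. At day 10 the Cdk9-DN bar lies above the control bar for Ccl2, Ccl8, Cxcl14 and Cxcl1, and below it for Cxcl10, and the difference of Cxcl1 was not called.

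The first question was how the monocyte chemoattractant genes of chromosome 11 moved. Ccl2 encodes the monocyte chemoattractant whose receptor is Ccr2, and it lies at chr11:81849073-81850955 (mm9, gene span). Ccl2 was listed at 49.5 and 53.8 FPKM in the control libraries of day 4 and at 51.2 and 55.4 FPKM with Cdk9-DN. At day 5 the values were 37.5 and 37.7 FPKM in the control and 41.4 and 46.2 FPKM with Cdk9-DN. At day 10 they were 11.6 and 11.8 FPKM in the control and 24.8 and 25.7 FPKM with Cdk9-DN. The 2 vectors overlapped at day 4 and did not overlap at days 5 and 10, and neither day 3 library listed the gene. How many of all genes separate the vectors in this way was not counted, so such separation is not read as a result.

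Ccl2 was 2.17-fold higher with Cdk9-DN than with the control vector at day 10 (25.2 ± 0.643 against 11.7 ± 0.137 FPKM, SD, n = 2 each). In the model fitted across all genes with limma, the difference was 1.05 ± 0.0672 (SE) on the log2(FPKM + 1) scale, with a Benjamini-Hochberg adjusted p of 9.65e-05. It was called, meaning an adjusted p under 0.05, in all 19 alternative settings. Where a group has 1 library listing a gene, the limma test takes the spread from the gene's other groups and assumes that the lone library varies like them. The difference was 0.04 at day 4 (limma adjusted p = 0.976) and 0.21 at day 5 (limma adjusted p = 0.440). The day 10 difference exceeded the day 4 difference by 1.01 ± 0.0950 (SE, limma adjusted p = 0.00100). Across time, Ccl2 fell from day 4 to day 10 in both vectors, 4.43-fold in the control (limma adjusted p = 1.01e-06) and 2.11-fold with Cdk9-DN (limma adjusted p = 3.81e-05).

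Part of the fall of Ccl2 was already seen at day 5 in the control vector, where it fell by 0.45 from day 4 (log2 scale, limma adjusted p = 0.0157). That early call was lost when any 1 of the 4 control libraries of days 4 and 5 was left out, with limma adjusted p between 0.0570 and 0.0818. With Cdk9-DN the day 5 difference from day 4 was -0.28 (limma adjusted p = 0.0814).

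Ccl7, which encodes another monocyte attractant, lies 8258 bases from Ccl2 at chr11:81859214-81861027 (mm9). At day 3 it was listed at 52.2 FPKM in the control library and 51.5 FPKM in the Cdk9-DN library. At day 4 it stood at 51.7 FPKM in the 1 control library listing it and at 53.4 and 49.0 FPKM with Cdk9-DN. The day 5 values were 38.4 FPKM in 1 control library and 43.3 and 41.9 FPKM with Cdk9-DN. At day 10 the 1 control library that listed it held 15.5 FPKM, below the 22.1 and 30.8 FPKM of the Cdk9-DN libraries.

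Ccl7 followed Ccl2 in level: in the 9 libraries listing both, the ratio of Ccl7 to Ccl2 FPKM had a median of 1.04 and ran from 0.885 to 1.35. Ccl7 fell from day 4 to day 10 by 1.67 in the control (limma adjusted p = 0.00591; 1 library on each day, so the spread comes from the other groups alone) and by 0.94 with Cdk9-DN (limma adjusted p = 0.0164). The second of these calls was lost without either Cdk9-DN library of day 4 (limma adjusted p = 0.0835 without replicate 1 and 0.0621 without replicate 2) and with no filter on low values (0.0743). The difference between vectors at day 10 was 0.71 ± 0.207 (SE) and did not pass the test (limma adjusted p = 0.0744). Without Cdk9-DN replicate 1 of day 10, the lower of the 2 libraries, it was 0.94 with a limma adjusted p of 0.0180.

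Ccl8 encodes a further attractant of monocytes and lies at chr11:81928687-81930301 (mm9), with Ccl11 and Ccl12 between it and Ccl7. Its levels were low, and the numbers of fragments implied by the deposited bounds are given with them. Both day 3 libraries listed Ccl8 at 0, and at day 4 it was listed at 0 and 0.237 FPKM in the control and 0.282 and 0.485 FPKM with Cdk9-DN. At day 5 it was listed at 1.43 and 1.63 FPKM in the control (6.0 and 5.0 fragments) and at 2.80 and 2.75 FPKM with Cdk9-DN (9.59 and 11.9 fragments). At day 10 the control libraries held 0.252 and 0.240 FPKM (1.0 fragment each) and the Cdk9-DN libraries 2.72 and 2.0 FPKM (11.9 and 9.0 fragments). Thus the control libraries of day 10 lay near the higher control value of day 4, on 1.0 fragment each, while those with Cdk9-DN stayed near their day 5 values.

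The libraries with Ccl8 at 1 FPKM or more were those of day 5 and the Cdk9-DN libraries of day 10. Ccl8 thus entered the test through groups in which it was high, and their differences from the others are partly fixed by that choice. For that reason its tests are given as a description. Ccl8 rose from day 4 to day 5 by 1.18 in the control (limma adjusted p = 0.00864) and by 1.45 with Cdk9-DN (limma adjusted p = 0.00580). The control rise was no longer called without control replicate 1 of day 4 (limma adjusted p = 0.0570) or control replicate 2 of day 5 (limma adjusted p = 0.0553). From day 4 to day 10 it rose by 1.27 with Cdk9-DN (limma adjusted p = 5.34e-04), and the control difference was 0.16 (limma adjusted p = 0.392). At day 10 Ccl8 was higher with Cdk9-DN by 1.42 ± 0.145 (SE, limma adjusted p = 6.61e-04) on the log2(FPKM + 1) scale, a difference called in all 18 alternative settings that gave a value. It was 0.31 at day 4 (limma adjusted p = 0.775) and 0.58 at day 5 (limma adjusted p = 0.322). The day 10 difference exceeded that of day 4 by 1.11 ± 0.205 (SE, limma adjusted p = 0.0127), and with a pseudocount of 0.1 in place of 1 the adjusted p was 0.250.

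The 2 genes between Ccl7 and Ccl8, within the 81229 bases from Ccl2 to Ccl8, were near 0. Ccl11, which encodes the eosinophil attractant eotaxin, reached at most 0.317 FPKM, and Ccl12 was above 0 in 1 library, at 0.538 FPKM. High levels in this stretch of chromosome 11 were therefore those of Ccl2 and Ccl7.

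Among the CXC genes listed, Cxcl14 had the highest levels. Cxcl12 and Cxcl16 had no entry in any library, so their levels are not known here. Cxcl14 encodes a chemokine expressed in many normal tissues and lies at chr13:56390008-56397912 (mm9). The day 3 libraries held 32.9 FPKM (control) and 34.0 FPKM (Cdk9-DN). At day 4 the values were 40.6 and 34.1 FPKM in the control and 36.3 and 37.5 FPKM with Cdk9-DN. Values of 38.0 and 39.3 FPKM in the control and 42.0 and 42.9 FPKM with Cdk9-DN were listed at day 5. Between days 4 and 5 the difference was 0.05 in the control (limma adjusted p = 0.780) and 0.20 with Cdk9-DN (limma adjusted p = 0.238). At day 10 Cxcl14 stood at 9.89 and 10.5 FPKM in the control and 13.3 and 13.0 FPKM with Cdk9-DN.

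Cxcl14 fell from day 4 to day 10, 3.67-fold in the control (limma adjusted p = 3.79e-06) and 2.80-fold with Cdk9-DN (limma adjusted p = 1.83e-05). At day 10 it was 1.29-fold higher with Cdk9-DN (13.2 ± 0.206 against 10.2 ± 0.418 FPKM, SD, n = 2 each), a difference of 0.34 ± 0.0768 (SE, limma adjusted p = 0.0163). This call was lost without control replicate 1 of day 10 (limma adjusted p = 0.0784), Cdk9-DN replicate 1 (0.0737) or Cdk9-DN replicate 2 (0.0565). The differences were -0.01 at day 4 (limma adjusted p = 1) and 0.13 at day 5 (limma adjusted p = 0.710). The change in that difference from day 4 to day 10 was 0.35 (limma adjusted p = 0.0706), and 0.48 without control replicate 2 of day 4 (limma adjusted p = 0.0140).

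Cxcl1, a ligand of the neutrophil receptor Cxcr2, lies at chr5:91320267-91322141 (mm9). It was listed in 8 of the 12 libraries of days 4 to 10. One library per vector listed it at day 4, with 3.99 FPKM in the control and 3.81 FPKM with Cdk9-DN, and likewise at day 5, with 2.41 and 3.48 FPKM. At day 10 the control libraries held 1.03 and 0.493 FPKM (9.59 and 5.0 fragments) and the Cdk9-DN libraries 1.67 and 1.45 FPKM (18.0 and 16.0 fragments). Cxcl1 fell from day 4 to day 10 in the control by 1.52 (limma adjusted p = 0.0185, with 1 library at day 4 and the spread from the groups of day 10), a call lost with no filter on low values (0.0844). The values with Cdk9-DN differed by -0.91 over the same days (limma adjusted p = 0.0777), and those of the 2 vectors at day 10 by 0.56 (limma adjusted p = 0.158).

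Cxcl5, a ligand of the same receptor at chr5:91188325-91190651 (mm9), was not tested, since 5 of the 12 libraries listed it and 1 of them reached 1 FPKM. It was listed at 3.54 and 3.48 FPKM at day 3 in the control and Cdk9-DN libraries, and at 1.86 FPKM in 1 control library of day 5. At day 10 the control libraries held 0.0590 and 0.225 FPKM and the Cdk9-DN libraries 0.691 and 0.571 FPKM. As with Cxcl1, both Cdk9-DN libraries lay above both control libraries at day 10, and how many of all genes do so was not counted.

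Cxcl10 encodes an interferon-inducible attractant of T cells that acts through Cxcr3, and lies at chr5:92775664-92777915 (mm9). Up to day 5 no library exceeded 0.609 FPKM: day 3 values were 0.0864 and 0.307 FPKM in the control and Cdk9-DN libraries, and day 4 values were 0 and 0.164 FPKM in the control and 0.195 and 0.0837 FPKM with Cdk9-DN. At day 5 it was listed at 0.0819 and 0.209 FPKM in the control and at 0.609 and 0.498 FPKM with Cdk9-DN. At day 10 the control libraries held 3.30 FPKM (deposited bounds 0.585 to 6.01, 5.91 fragments) and 1.43 FPKM (4.80 fragments), and the Cdk9-DN libraries 0 and 0.962 FPKM. The control libraries of day 10 were the only ones at 1 FPKM or more, so the gene entered the test through the group in which it was high, and a difference of that group from the others is partly fixed by that choice.

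Cxcl10 rose in the control from day 4 to day 10 by 1.58 ± 0.353 (SE, limma adjusted p = 0.00782), which is given as a description for that reason. With Cdk9-DN the difference over the same days was 0.30 (limma adjusted p = 0.548). At day 10 it was lower with Cdk9-DN by a log2 difference of -1.21 ± 0.353 (SE, limma adjusted p = 0.0413). That call was kept in 4 of 18 settings, with limma adjusted p from 0.0178 to 0.238, and it was lost on leaving out control replicate 1 (-0.79, 0.189) or Cdk9-DN replicate 1 (-0.72, 0.175) of day 10 and on leaving out any 1 library of days 4 and 5. The change in the difference from day 4 to day 10 was -1.28 (limma adjusted p = 0.130), and -1.77 without Cdk9-DN replicate 2 of day 10 (limma adjusted p = 0.0445).

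The neighbouring interferon-inducible gene Cxcl11, 10654 bases away, was below the filter. Its day 10 values were 0.337 and 0.268 FPKM in the control (4.61 and 3.76 fragments) and 0.101 and 0.106 FPKM with Cdk9-DN (1.22 and 1.45 fragments). The deposited bounds overlapped, at 0.0229 to 0.650 FPKM in control replicate 1 and 0 to 0.284 FPKM in Cdk9-DN replicate 1. In a fit without the filter it differed by -0.24 between the vectors at day 10 (limma adjusted p = 0.00958) and by 0.30 between days 10 and 4 of the control (limma adjusted p = 0.00150). Cxcl9, the third interferon-inducible gene of this stretch, 18558 bases from Cxcl10 on its other side, was listed at 0.0659 and 0.0736 FPKM in the control and 0.0430 and 0.0631 FPKM with Cdk9-DN at day 10, and at 0.0980 and 0.0476 FPKM in the control at day 4.

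Counted together, 0 of the 6 tested members were called between the vectors at day 4, where 0.0336% of 5950 tested genes were called by limma and 388 had an unadjusted p under 0.05. At day 5 the count was again 0 of 6, with 0.169% of all tested genes called by limma (0.0678% higher and 0.102% lower). In the limma model, Ccl2 and Ccl8 had an unadjusted p of 0.0149 and 0.00505 at day 5, and no member had one under 0.05 at day 4. At day 10, where 28.9% of tested genes were called, there were 3 members higher with Cdk9-DN (Ccl2, Ccl8 and Cxcl14), against 14.5% of all tested genes, and 1 lower (Cxcl10), against 14.4%. The day 10 difference departed from that of day 4 for 2 members, Ccl2 and Ccl8, both upwards, against 7.95% of all tested genes called upwards and 7.79% downwards. The median difference of the 6 members at day 10 was 0.63, beside 0.00 over all tested genes. Since Cxcl10 and Ccl8 passed the filter on low values only through groups in which they were high, these counts describe the members and support nothing by themselves.

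Across time, 4 members fell (Ccl2, Ccl7, Cxcl1 and Cxcl14) and 1 rose (Cxcl10) from day 4 to day 10 in the control, Ccl7 and Cxcl1 with a group of 1 library, where 50.0% of tested genes were called, 21.8% lower and 28.2% higher. With Cdk9-DN, 3 members fell (Ccl2, Ccl7 and Cxcl14) and 1 rose (Ccl8), where 38.0% were called, 13.5% lower and 24.5% higher. From day 4 to day 5, 1 member rose and 1 fell in the control (5.02% of genes called, 1.83% higher and 3.19% lower), and 1 rose with Cdk9-DN (3.28% called, 1.34% higher and 1.95% lower). The median of the 6 members from day 4 to day 10 was -1.59 in the control and -0.93 with Cdk9-DN, beside 0.07 and 0.11 over all tested genes. Cxcl10 and Ccl8 passed the filter only through groups in which they were high. Their rises are thus partly fixed by that choice, and these counts and medians only describe the members. The comparisons at day 10 and those across time share libraries. A fit of only the groups compared, with fewer libraries behind the spread, ended the calls of Ccl2 and Ccl8 at day 5 in the control, Ccl8 at day 5 with Cdk9-DN, Cxcl10 and Cxcl14 between the vectors at day 10, and Cxcl1 and Cxcl10 in the control and Ccl7 with Cdk9-DN from day 4 to day 10.

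**Figure D2:**
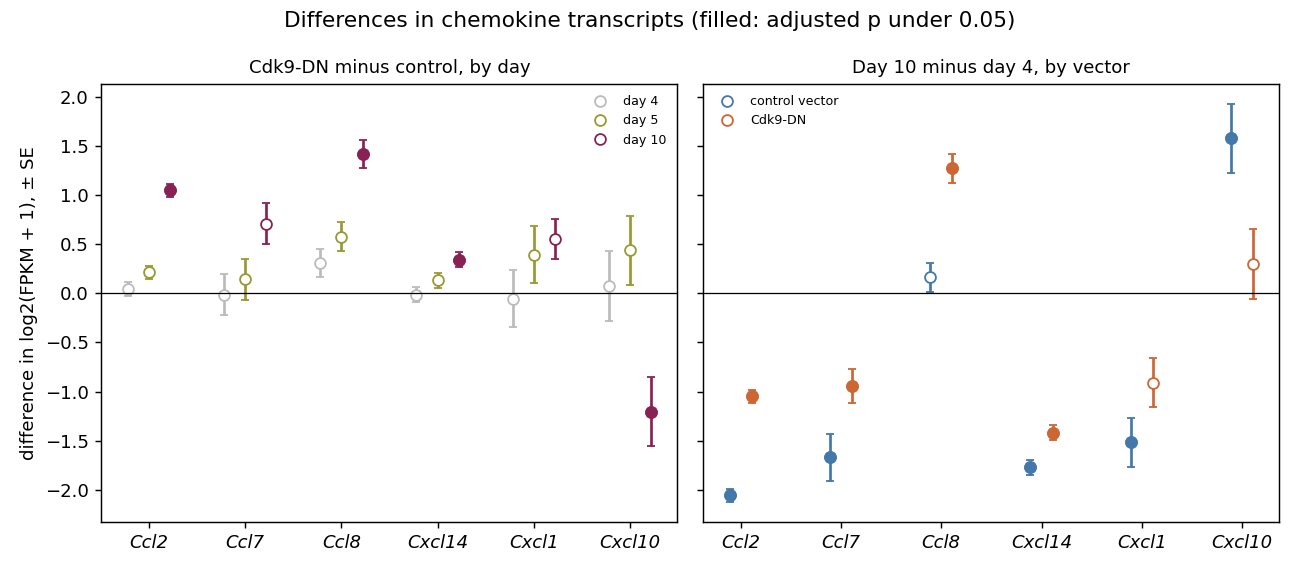
Differences on the log2(FPKM + 1) scale with their standard errors for the 6 tested genes: Cdk9-DN minus control at days 4, 5 and 10 (left) and day 10 minus day 4 in each vector (right), with filled points for limma adjusted p under 0.05. At day 4 none of the 6 points is filled, and Ccl8 lies highest at 0.31. At day 10 Ccl2, Ccl8 and Cxcl14 are filled above 0 and Cxcl10 below. On the right Ccl2, Ccl7 and Cxcl14 are filled below 0 in both vectors, Ccl7 in the control with 1 library on each day.

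The other 16 members below the filter, apart from Cxcl5 and Ccl9, reached at most 0.833 FPKM (Cxcl17, in control replicate 1 of day 10) and at most 6.0 implied fragments in any library. Ccl9 was listed between 0.0654 and 0.593 FPKM except in the control library of day 5 that stood apart, where it was listed at 22.8 FPKM with bounds of 0 to 92.3, which corresponds to 0.431 fragments. Just inside the filter was Cxcl10, with 2 libraries at 1 FPKM or more, and just outside were Cxcl5 and Ccl9, with 1 such library each. In the fit without the filter, Ccl21b and Ccl21c were also called at day 10 at no more than 0.0680 FPKM, and with Ccl21a they are near-identical copies whose fragments cannot be assigned with certainty. The plot of all members above 0 shows Ccl2, Ccl7 and Cxcl14 apart from the rest.

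**Figure D3:**
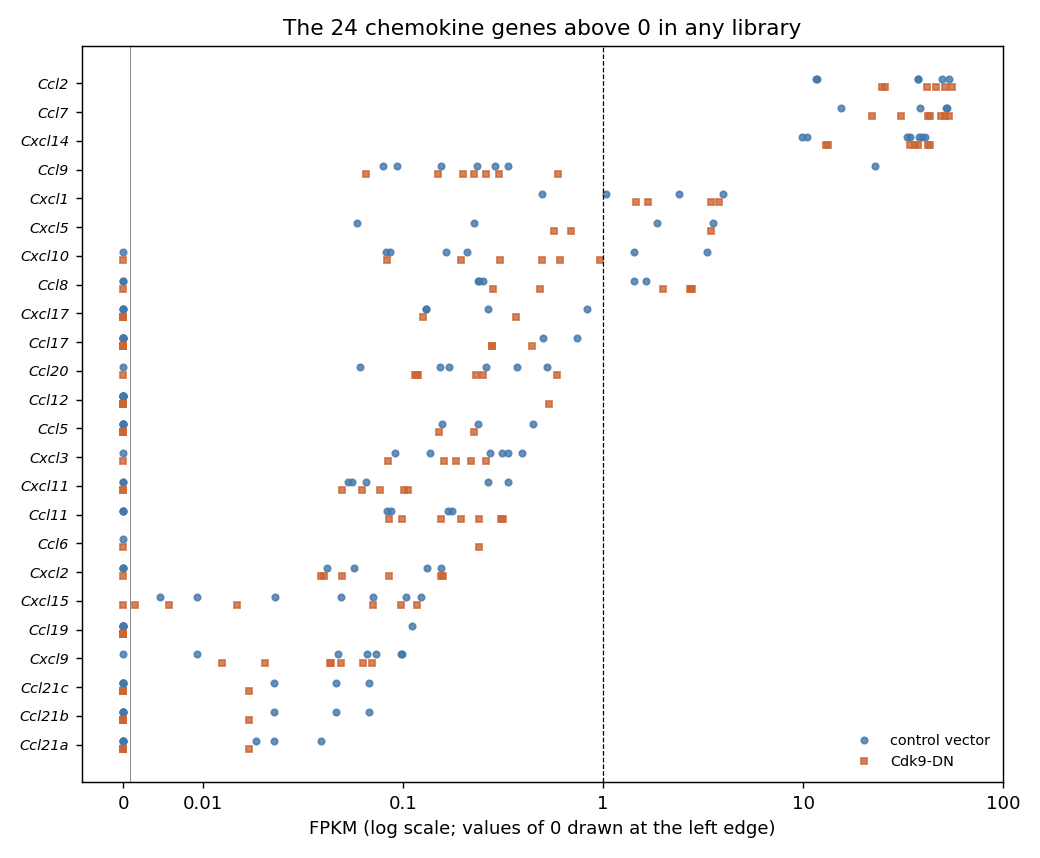
FPKM on a log axis for the 24 chemokine genes above 0 in any library, 1 point per library, blue circles for the control vector and orange squares for Cdk9-DN, with values of 0 drawn at the left edge and the dashed line at 1 FPKM. Ccl2, Ccl7 and Cxcl14 lie above 9 FPKM in every library that lists them, and the single Ccl9 point at 22.8 FPKM is the control library of day 5.

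Few receptor genes could be tested. Of 32 other chemokine and chemokine receptor genes, 19 were listed, 2 passed the filter and 1, Cxcr6, was tested at day 10. Cxcr6, the receptor of the membrane-bound chemokine Cxcl16, stood at 2.78 and 4.14 FPKM in the control and 3.02 and 4.19 FPKM with Cdk9-DN at day 4, and at 0.412 and 0.306 FPKM against 0.494 and 0.564 FPKM at day 10. It fell over these days by 1.70 in the control (limma adjusted p = 0.00830) and by 1.58 with Cdk9-DN (limma adjusted p = 0.0157), and differed by 0.17 between the vectors at day 10 (limma adjusted p = 0.791). Cxcr7, a scavenging receptor, was listed in 6 libraries at 8.25 to 12.7 FPKM, none of them of day 10. Ccr2, the receptor of Ccl2 and Ccl7, was listed in 4 libraries at no more than 0.0455 FPKM.

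Among genes of NF-kB signalling and inflammatory cytokines, 23 of 39 were listed and 13 were tested between the vectors at day 10. By limma 1 was higher with Cdk9-DN and 3 were lower, with a median difference of 0.01, beside 28.9% of all tested genes called in either direction, and the count is read no further. Vcam1, an adhesion molecule, was 4.95 ± 0.433 FPKM in the control and 9.72 ± 0.639 FPKM with Cdk9-DN (SD, n = 2 each; 0.85, limma adjusted p = 9.94e-04). Nfkbia, the NF-kB inhibitor that is itself an NF-kB target, was 60.4 ± 0.626 FPKM in the control and 29.7 ± 0.500 FPKM with Cdk9-DN (SD, n = 2 each; -1.0, limma adjusted p = 5.92e-05). Zfp36, which encodes an mRNA-destabilising protein, differed by -0.68 (limma adjusted p = 0.0394, 1 Cdk9-DN library), and Icam1, another adhesion molecule, by -0.68 (limma adjusted p = 0.0106). At day 10 Vcam1 thus differed in the direction of Ccl2, and Nfkbia, Icam1 and Zfp36 in the opposite direction.

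Of 27 interferon response genes, 14 were listed and 5 tested between the vectors at day 10, with 0 higher and 1 lower by limma and a median of -0.24. Over all tested genes 14.5% were higher and 14.4% lower, and the count is read no further. The called gene was Bst2, an interferon-inducible antiviral membrane protein, listed at 215 FPKM in 1 control library and at 130 ± 0.812 FPKM (SD, n = 2) with Cdk9-DN (-0.73, limma adjusted p = 0.0252, with the control spread taken from other groups). It rose from day 4 to day 10 in both vectors, by 3.09 in the control (limma adjusted p = 3.20e-05) and by 2.60 with Cdk9-DN (limma adjusted p = 5.10e-05).

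Markers of other cell types also differed in level over the same days. Of 23 leukocyte markers, 18 were listed and 3 tested between the vectors at day 10, with 0 called by limma, beside 28.9% of all tested genes. Their summed level was 16.8 FPKM in the control and 13.8 FPKM with Cdk9-DN at day 3, and 2.11 to 5.78 FPKM at days 4 and 5. At day 10 it was 44.3 and 41.3 FPKM in the control and 10.7 and 2.72 FPKM with Cdk9-DN. The macrophage marker Cd68 supplied 42.0 and 39.0 FPKM of the control sums of day 10 and 8.70 FPKM of the higher Cdk9-DN sum, and the other Cdk9-DN library did not list it. At day 3 Cd68 was listed only in the control library, whose sum without it was 11.4 FPKM. No library of days 4 and 5 listed Cd68 either, so these sums cover different genes: without Cd68 those of day 10 were 2.32 and 2.33 FPKM in the control and 2.04 and 2.72 FPKM with Cdk9-DN. The T cell marker Cd3e, the B cell marker Ms4a1 and the NK cell marker Nkg7 were listed at 0 in every library listing them. Lyz2, a lysozyme gene of macrophages, was listed at 7.42 and 9.21 FPKM at day 3, at 1.84 to 2.59 FPKM at day 4 and at no more than 0.133 FPKM at day 10. Cd14, a monocyte marker, was higher at day 10 than at day 4 in the control (1.75 FPKM in 1 library against 0.875 ± 0.118 FPKM, SD, n = 2; 0.56, limma adjusted p = 0.0352) and differed by -0.40 between the vectors at day 10 (limma adjusted p = 0.134). The part of these cells in the chemokine values was not tested.

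Fibroblast genes differed between the vectors at day 10 as well. Of 17 markers, 9 were listed and 7 tested, with 3 higher with Cdk9-DN and 1 lower by limma and a median of 0.66, beside 14.5% of all tested genes higher and 14.4% lower. Dcn, which encodes the matrix protein decorin, was 3.73 and 4.42 FPKM in the control and 12.5 and 14 FPKM with Cdk9-DN at day 10 (1.49, limma adjusted p = 2.16e-04). Lum, a related matrix gene, differed by 0.85 (limma adjusted p = 0.0130) and the transcription factor gene Twist1 by 0.83 (limma adjusted p = 0.0180), while the matrix protease gene Mmp2 differed by -0.54 (limma adjusted p = 0.00960, 1 control library). Against the same shares, of the tested epithelial markers 5 of 5 were lower with Cdk9-DN at day 10, with a median of -1.79, and of the pluripotency markers 4 of 5, with a median of -0.79. Of the endothelial markers past the filter, Cldn5 was lower (0.938 against 3.68 FPKM, limma adjusted p = 8.19e-05), and Tek, listed in 1 library a vector and not tested, stood at 23.2 FPKM with Cdk9-DN and 13.9 FPKM in the control. Cdh5, an endothelial marker below the filter, was listed at no more than 0.0780 FPKM in any library. The other tested fibroblast markers were not called: Twist2 (0.66, limma adjusted p = 0.0956), Pdgfra (0.08, limma adjusted p = 0.578) and Thy1 (0.08, 1 control library). Dcn, Lum and Twist1 thus differed in the direction of Ccl2, Ccl8 and Cxcl14, and Mmp2 in the opposite direction. Whether the share of fibroblasts plays a part in the chemokine values was not tested.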

How the data were processed

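Per the labels, total RNA was extracted with TRIzol and libraries were made by standard Illumina protocols. The authors deposited FPKM values with a lower and an upper bound, 1 table per library. The submitters' processing notes name CASAVA 1.8.2, TopHat2 2.0.10 and Cufflinks 2.2.1 and, as builds, NCBIM37 and mm9. No read counts were analysed.

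FPKM of the 12 libraries of days 4, 5 and 10 was set to log2(FPKM + 1) and fitted with limma 3.58.1 in R 4.3.3 as 6 group means, over the 7460 genes with at least 1 FPKM in at least 2 of the 12 libraries. Each gene was fitted on the libraries listing it where 2 or more residual degrees of freedom were left. Tests were two-sided, and p-values were adjusted by Benjamini-Hochberg over all genes of a comparison and called under 0.05. Day 3, with 1 library per vector, has no test. Fold changes are ratios of mean FPKM, and log2 differences understate changes of low genes. Fragments behind a value were computed taking the bounds as 2 SD of counting error, which was not tested; depth is the median over single-transcript genes of those fragments per FPKM and GENCODE M21 transcript length. The fit was checked on simulated data.

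Every gene matching the symbol rule is accounted for: those listed at 0 are counted, those below the filter are given by range, and those tested by each library. Of other gene lists, counts are given and up to 4 called genes named. Members and lists were chosen with earlier results of these data known. The labels tie same-numbered libraries by number alone. Their deviations correlated at r = 0.215, -0.0051 and 0.0130 between the vectors at days 4, 5 and 10 (1334 genes) and from -0.376 to 0.306 over all 15 pairs of groups, without 1 sign, so no pairing was used. Alternatives were a pseudocount of 0.1, no filter, a filter of 5 FPKM, median-of-ratios scaling, quantile normalization, a replicate block, a fit of only the groups compared, and leaving out each library. Promoters came from RefSeq (21 of 34 members had an entry). Cdk9 itself was not analysed here.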

Additional observations from a re-analysis of the deposited data

Results flagged for a closer look

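For 2 chemokine genes the difference between Cdk9-DN and the control vector was not the same at day 10 as at day 4, by a test of the change itself in the limma fit of all genes. Of the 5523 genes tested for that change, 15.7% were called. For Ccl2 the change was 1.01 on the log2(FPKM + 1) scale (adjusted p = 0.00100), from 0.04 at day 4 to 1.05 at day 10, and it was called in 19 of 19 alternatives. For Ccl8 the change was 1.11 (limma adjusted p = 0.0127), from 0.31 to 1.42, on 1.0 fragment in each control library of day 10, and it was called in 17 of 18 alternatives. Ccl8 entered the test through groups in which it was high, so its change is given as a description. At days 4 and 10 the groups hold 2 libraries each, too few for a search for outlying libraries.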

How the results depend on the processing

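Of 48 gene results, 18 were called by limma, 9 of those stayed called in every alternative that gave a value, and 5 of the 30 uncalled ones were called in some alternative. None of the 8 results that changed sign in some setting was called. The count of called members moved with the filter of 5 FPKM, which leaves 3 members to test: 2 between vectors at day 10, 1 for the change of that difference from day 4, 1 and 3 in the control at days 5 and 10 against day 4, and 0 with Cdk9-DN at day 5. Fitting only the groups compared gave 2 at day 10, 0 and 2 in the control at days 5 and 10, and 0 with Cdk9-DN at day 5. A pseudocount of 0.1 gave 1 for the change from day 4 to day 10, and median-of-ratios scaling and quantile normalization each gave 2 with Cdk9-DN at day 5.

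Leaving out each library gave 2 to 4 called members between vectors at day 10, 2 to 3 for the change from day 4, 0 to 2 and 3 to 5 in the control at days 5 and 10 against day 4, and 3 to 4 with Cdk9-DN at day 10 against day 4. The counts stayed at 0 at days 4 and 5 between vectors and at 1 with Cdk9-DN at day 5. The low ends for the control came without control replicate 1 of day 4 or replicate 2 of day 5 (0) and without control replicate 1 of day 10 (3, and 2 between vectors).

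The replicate block ended 1 call, Cxcl10 at day 10 between vectors (limma adjusted p = 0.0644), gave no value for Cxcl1, whose control call of day 10 against day 4 it therefore does not test, and left the member counts at 3 between vectors at day 10 and 4 in the control at day 10 against day 4. Over all genes the block left 1397 calls between vectors at day 10, against 1658 without it. In the control at day 10 against day 4 it left 2609, against 2907. Same-numbered libraries share only a number.

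The sign changed for uncalled differences. Without 1 library the day 4 difference between vectors ranged from -0.015 to 0.10 for Ccl2, -0.075 to 0.046 for Ccl7, -0.033 to 0.19 for Cxcl10 and -0.13 to 0.11 for Cxcl14. The control difference from day 4 to day 5 ranged from -0.025 to 0.19 for Cxcl10 and from -0.070 to 0.17 for Cxcl14, and that from day 4 to day 10 with Cdk9-DN from -0.19 to 0.79 for Cxcl10. Median-of-ratios scaling gave 0.026 for Ccl7 and 0.021 for Cxcl14 at day 4. Quantile normalization gave 2.26e-06 for Cxcl14 at day 4, -0.070 for Cxcl14 from day 4 to day 5 in the control and -0.069 for Ccl8 from day 4 to day 10 in the control. The cause of these moves was not tested.

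Scaling moved the split over all genes between days 10 and 4: 1639 higher and 1268 lower in the control became 1393 and 1527 with median-of-ratios scaling and 1204 and 1606 with quantile normalization, and with Cdk9-DN 1423 and 785 became 990 and 1169, and 898 and 1087. The all-gene median with Cdk9-DN moved from 0.11 to -0.03. Depth limits Ccl8 and Cxcl10, at 11.9 fragments or fewer in any library, and the members below the filter other than Cxcl5, at 6.0 or fewer. It also limits Cxcl1 in the control libraries of day 10, at 9.59 and 5.0 fragments.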
